A study of Mus musculus with 20 samples.

Results

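Neat1, Malat1, Sfpq, Nono and Pspc1 are 2 nuclear long noncoding RNAs and 3 proteins of the paraspeckle, and they were taken as the rows of the count tables that carry these symbols. All 5 were found among the 41115 genes of the tables, and all 5 passed the filter on low counts. Neat1 was chosen by its measured CPM, lower in stimulated than in untreated cells at all times, so its values between the arms are given as a description with no test. Malat1 and the proteins were tested.

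Paraspeckles are nuclear bodies that form in the interchromatin space around the long isoform of the Neat1 RNA, which works as their scaffold. SFPQ, NONO and PSPC1 belong to the same family of RNA-binding proteins that pair with each other and coat this RNA, and SFPQ and NONO are needed for it to accumulate. Malat1, transcribed from the neighbouring locus, is a marker RNA of nuclear speckles, which hold splicing factors. Paraspeckles are known for keeping some RNAs and proteins in the nucleus, and Neat1 is known in many cell types as a gene that responds to stress and to infection.

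The 10 stimulated libraries came from mouse cells labelled spleen with the treatment LPS, IL4 and TGFb, an AID (activation-induced cytidine deaminase) stimulation cocktail of lipopolysaccharide, interleukin 4 and transforming growth factor beta, and the 10 untreated libraries from cells without it. Each arm had 1 library at 0, 15 and 30 min and at 1, 2, 3, 6, 12, 24 and 48 h. Per the design text each arm was 1 mouse, so mouse and treatment cannot be told apart, and strain and age are not stated in the labels. Every p-value therefore measures the spread between times, taken as early (15 min, 30 min and 1 h), middle (2, 3 and 6 h) and late (12, 24 and 48 h).

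Poly-A RNA was sequenced, and totals ran from 36873155 to 60918651 counts per library. Levels are given in CPM, counts scaled to the library total and its TMM factor, and 3 counts, the floor of detection, came to at most 0.0748 CPM. The summed level of 6 B cell markers was 1284 to 2082 CPM in stimulated libraries and 1701 to 2127 CPM in untreated libraries. The 6 T cell markers summed to 36.55 to 74.27 CPM in stimulated libraries and 42.1 to 50.1 CPM in untreated libraries. Most of this was Cd5, at 32.4 to 69 CPM in stimulated libraries and 37.6 to 48.7 CPM in untreated libraries, and Cd4 reached 5.06 CPM in stimulated and 5.2 CPM in untreated libraries. Cd3e and Cd8a stayed at or below 0.337 CPM in stimulated libraries and at or below 0.223 CPM in untreated libraries. Cd3d reached 0.447 CPM in stimulated and 0.526 CPM in untreated libraries, and Cd3g reached 0.68 and 0.51 CPM. S100a8 and S100a9 of neutrophils were at 0 in every library, as were Hbb-b1 and Hbb-bs of red cells. Elane of neutrophils reached 0.061 CPM in stimulated and 0.149 CPM in untreated libraries. Hba-a1 of red cells was at 0.0846 to 0.3 CPM in stimulated and 0.0615 to 0.451 CPM in untreated libraries. Hba-a2 was at 0.0407 to 0.225 CPM in stimulated and 0.0159 to 0.15 CPM in untreated libraries.

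The 3' ends of the noncoding RNAs are shown because poly-A selection depends on them. The 5 genes lie on chromosomes 19 (Neat1 and Malat1), 4 (Sfpq), X (Nono) and 14 (Pspc1) in the GENCODE vM21 annotation of GRCm38. Neat1 covers 5824708 to 5845478 on the minus strand, and Malat1 covers 5795690 to 5802672 on the same strand, 22035 bases away. Neat1 has a long unspliced transcript of 20771 bases and an annotated short transcript of 3004 bases in 2 exons that starts at almost the same place. The last 70 bases of the short transcript (chr19:5842307-5842376, minus strand, 5′ to 3′) hold the polyadenylation signal AATAAA in capitals, 14 bases before the end.
Neat1-202: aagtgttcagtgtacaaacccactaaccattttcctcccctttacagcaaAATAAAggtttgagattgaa
The long transcript ends without such a tail in textbook accounts, in a structure that folds a genome-encoded A-rich tract into a triple helix. Its last 90 bases (chr19:5824708-5824797, minus strand) are shown with that tract in capitals.
Neat1-201: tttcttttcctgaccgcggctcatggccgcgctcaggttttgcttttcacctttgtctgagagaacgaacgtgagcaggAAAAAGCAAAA
Malat1 is processed in the same way, and 90 bases up to its run of 12 A in capitals are shown (chr19:5795988-5796077, minus strand), 298 bases before the annotated end.
Malat1-201: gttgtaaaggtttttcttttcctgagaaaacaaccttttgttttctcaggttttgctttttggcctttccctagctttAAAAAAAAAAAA
The counts are per gene, so the short and the long Neat1 RNA cannot be told apart, and levels of Neat1 and Malat1 here are levels of what oligo-dT captured. The strand setting of the counting is not stated, which leaves Malat1 uncertain where Gm37376 overlaps it on the opposite strand. On the same strand Gm27533, Gm27505 and Gm28006 overlap Neat1 in this annotation, and Gm27694 overlaps Malat1. How reads in these stretches were counted is not stated.

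Neat1 RNA rose with time in both arms, and it was lower in stimulated cells than in untreated cells at all 9 times after 0 min. In stimulated cells the level was 61.0 CPM at 0 min and 34.2, 43.3 and 47.2 CPM at 15 min, 30 min and 1 h. It was 164, 203 and 132 CPM at 2, 3 and 6 h, and 107, 83.5 and 131.5 CPM at 12, 24 and 48 h. In untreated cells the level was 68.6 CPM at 0 min, 75.0, 71.3 and 118.5 CPM at 15 min, 30 min and 1 h, 636, 676 and 499 CPM at 2, 3 and 6 h, and 361, 315 and 373 CPM at 12, 24 and 48 h. Within each phase the highest stimulated library was below the lowest untreated library. In both arms the middle libraries were highest, the late libraries next and the early libraries lowest. In stimulated cells the lowest middle library (132.3 CPM) and the highest late library (131.5 CPM) nearly met. The share of all genes that separate by phase in this way was not counted, so this order is a description.

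**Figure D1:**
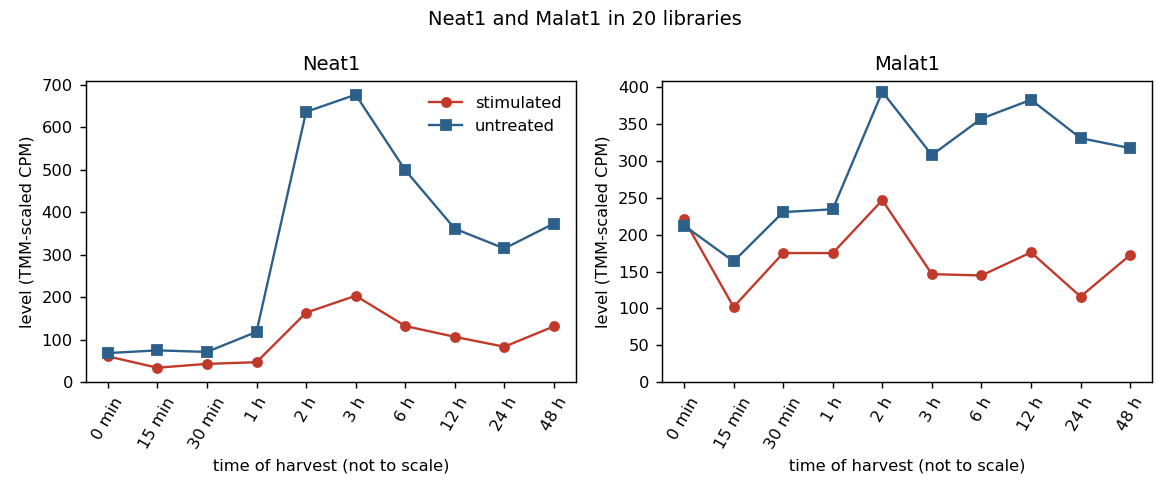
TMM-scaled CPM (linear axis from 0) of Neat1 (left) and Malat1 (right) in each of the 10 stimulated (circles) and 10 untreated (squares) libraries, by time of harvest with even spacing; each point is 1 library. Neat1 reached 203 CPM at 3 h in stimulated cells and 676 CPM at 3 h in untreated cells, while stimulated Malat1 exceeded its 0 min level of 221 CPM only at 2 h.

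The change of Neat1 over time did not enter its choice and was tested within each arm. Between middle and early libraries it rose in stimulated cells, by 2.00 ± 0.22 on the log2 scale (SE, 3 libraries each, edgeR adjusted p = 2.9e-05), and in untreated cells, by 2.77 ± 0.23 (edgeR adjusted p = 2.3e-05). Of the 12139 genes tested, 12061 had a smaller log2 change than Neat1 in stimulated cells and 12134 in untreated cells. This pair of tests was added after the levels had been seen. In these comparisons 22.1% of genes rose and 19.3% fell in stimulated cells, and 13.6% rose and 11.9% fell in untreated cells. Between late and early libraries Neat1 rose by 1.37 ± 0.22 in stimulated cells (edgeR adjusted p = 0.00015) and by 1.99 ± 0.22 in untreated cells (edgeR adjusted p = 0.00019). Here 29.2% of genes rose and 25.7% fell in stimulated cells, and 22.6% rose and 20% fell in untreated cells.

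The step between 1 and 2 h was 3.47-fold in stimulated cells and 5.37-fold in untreated cells. Levels within 1 sequencing lane, as coded in the library descriptions, are given for lane 4 and lane 3, with 1 early library per arm. In stimulated libraries of lane 4 Neat1 was at 43.3 CPM at 30 min and at 164, 203 and 132 CPM at 2, 3 and 6 h. In untreated libraries of lane 3 it was at 71.3 CPM at 30 min and at 676 and 499 CPM at 3 and 6 h. The part of the lane in the rise was not tested.

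Between the arms, the log2 ratio of stimulated to untreated Neat1 (CPM plus a pseudocount of 0.5) was -0.17 at 0 min. It was -1.12, -0.71 and -1.32 at 15 min, 30 min and 1 h, then -1.96, -1.73 and -1.91 at 2, 3 and 6 h, and -1.75, -1.91 and -1.50 at 12, 24 and 48 h. The separation was thus present at 15 min, when the stimulated library held 56.1% of its own 0 min level and the untreated library 109.4% of its own. Fitted over the 9 times the log2 fold change was -1.56, a measure from the same contrast by which the gene was chosen, and in the early, middle and late phases it was -1.06, -1.86 and -1.73. A gene lower in stimulated cells at every one of these times was not rare, since 6.61% of the 12042 genes tested were. Of these 12042 genes, 6 had a lower log2 fold change over the 9 times than Neat1. That place rests on the same contrast that chose the gene and is given as a description only. Stimulated libraries that all lay below all untreated ones were found for 8.9% of genes early, for 7.74% in the middle phase and for 12.7% late.

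Malat1 RNA was lower in stimulated cells than in untreated cells, and the gap was larger late than early. In stimulated cells the level was 221 CPM at 0 min, 102, 175 and 175 CPM at 15 min, 30 min and 1 h, 247, 146.5 and 145 CPM at 2, 3 and 6 h, and 176, 116 and 172 CPM at 12, 24 and 48 h. In untreated cells it was 212 CPM at 0 min, 164, 231 and 234 CPM at 15 min, 30 min and 1 h, 394, 308 and 357 CPM at 2, 3 and 6 h, and 383, 331 and 317 CPM at 12, 24 and 48 h. The arms overlapped in the early phase and did not overlap in the middle and late phases, and at 0 min they differed by a log2 ratio of 0.05. All stimulated libraries lay below all untreated ones for 7.74% of genes in the middle phase and for 12.7% late.

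Over the 9 times Malat1 fell in stimulated relative to untreated cells by a log2 fold change of -0.90 ± 0.11 (SE, edgeR adjusted p = 0.0011), and the stimulated library was lower at 9 of 9 times. In that comparison 11.7% of genes were called lower and 10.6% higher, and 6.61% of genes were lower at all 9 times. The early difference of -0.50 ± 0.13 did not pass (edgeR adjusted p = 0.071), in a phase where 1.64% of genes were called lower and 0.598% higher. The middle difference was -1.01 ± 0.13 (edgeR adjusted p = 0.00051), beside 10.3% of genes called lower and 10.2% higher. The late difference was -1.18 ± 0.13 (edgeR adjusted p = 5.2e-05), beside 18.3% called lower and 17.8% higher. Late minus early, the difference grew, by a log2 change of -0.68 ± 0.18 (edgeR adjusted p = 0.021), where 9.52% of genes were called lower and 10.2% higher. This last call was lost without the 30 min, the 1 h or the 24 h pair, with -0.62, -0.64 and -0.50 and adjusted p of 0.087, 0.073 and 0.075. The corresponding value of Neat1, given with no test, was -0.67.

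Over time, a rise of Malat1 was called in untreated cells and none in stimulated cells, and the late minus early test above is the test of that difference. In stimulated cells the change was small, with a late minus early log2 change of 0.04 and a 95% interval of -0.47 to 0.55 (edgeR adjusted p = 0.90), and 0.25 between middle and early libraries (edgeR adjusted p = 0.41). In untreated cells Malat1 rose by 0.71 ± 0.24 late (edgeR adjusted p = 0.026) and by 0.75 ± 0.24 in the middle phase (edgeR adjusted p = 0.033). Of all genes 22.6% rose in the late and 13.6% in the middle comparison. The size of both untreated changes held with single times left out, while the calls did not. The late one was lost without the 15 min, 30 min or 12 h libraries (0.56, 0.77 and 0.63, adjusted p 0.077, 0.061 and 0.091). The middle one was lost without any 1 of 15 min, 30 min, 1 h, 3 h and 6 h (0.61 to 0.84, adjusted p from 0.053 to 0.095).

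At 15 min the stimulated library stood low for several members. Malat1 was at 46.2% of its own 0 min level there and Neat1 at 56.1%, while Sfpq was at 76.9%. In the untreated library at 15 min, Malat1 was at 77.1%, Neat1 at 109.4% and Sfpq at 105.1% of their 0 min levels. Leaving out the 15 min pair left the 9-time change of Malat1 within -0.96 to -0.82, the range over all single pairs left out.

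Because both RNAs were counted in the same library, their ratio does not depend on the scaling. Neat1 counts per Malat1 count were 0.276 at 0 min in stimulated cells and 0.323 in untreated cells. The ratio at 2, 3 and 6 h was 0.663, 1.39 and 0.914 in stimulated cells and 1.62, 2.20 and 1.40 in untreated cells. At 48 h it was 0.762 in stimulated cells and 1.18 in untreated cells. The stimulated ratio was the lower at each of the 10 times. This is a description, since it includes the Neat1 values that chose the gene.

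**Figure D2:**
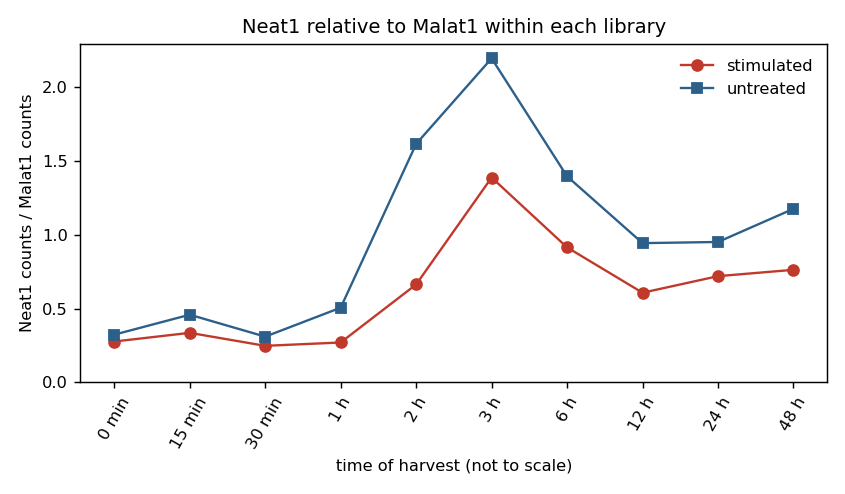
Neat1 counts divided by Malat1 counts (linear axis from 0) in each stimulated (circles) and untreated (squares) library, by time of harvest with even spacing. Both arms peak at 3 h, at 1.39 in stimulated and 2.20 in untreated cells, and the stimulated point lies below the untreated one at each time.

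Of the proteins, Sfpq transcripts were lower in stimulated cells early and late and close to the untreated level in between, while Nono and Pspc1 showed no called difference between the arms. SFPQ is a splicing factor that also binds promoters, and its gene on chromosome 4 (127021324 to 127037013, plus strand) overlaps the transcript Gm12940 on the same strand. In stimulated cells Sfpq was at 731 CPM at 0 min, 562, 776 and 841 CPM at 15 min, 30 min and 1 h, 1039, 1060 and 1051 CPM at 2, 3 and 6 h, and 762.5, 795 and 636 CPM at 12, 24 and 48 h. In untreated cells it was at 789 CPM at 0 min, 830, 1067 and 1008 CPM early, 1092, 1085 and 1104 CPM in the middle phase, and 856, 999 and 940 CPM late. The arms overlapped early and did not overlap late. In the middle phase they did not overlap either, but the nearest libraries were 1060 CPM stimulated and 1085 CPM untreated. All stimulated libraries lay below all untreated ones for 7.74% of genes in the middle phase and for 12.7% late.

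Over the 9 times Sfpq fell by 0.28 ± 0.06 on the log2 scale in stimulated relative to untreated cells (edgeR adjusted p = 0.011), with the stimulated library lower at 9 of 9 times. In that comparison 11.7% of genes were called lower, and 12% had a lower log2 fold change than Sfpq. The stimulated library was lower at all 9 times for 6.61% of genes. The early difference was -0.42 ± 0.07 (edgeR adjusted p = 0.014), in a phase where 1.64% of genes were called lower. It was lost without the 15 min pair (-0.35, adjusted p = 0.14) and without the 30 min pair (-0.41, adjusted p = 0.13). The late difference was -0.36 ± 0.07 (edgeR adjusted p = 0.0020), and the middle one was -0.05 with a 95% interval of -0.21 to 0.10 (edgeR adjusted p = 0.62). Of all genes 18.3% were called lower late. Late minus early, the difference of Sfpq was 0.06, with an interval of -0.15 to 0.28 (edgeR adjusted p = 0.70). In stimulated cells Sfpq rose between middle and early libraries by 0.53 ± 0.13 (edgeR adjusted p = 0.0050), beside 22.1% of all genes rising. In untreated cells the same step was 0.18 and did not pass (edgeR adjusted p = 0.32). The 95% intervals of these steps overlapped, at 0.26 to 0.81 in stimulated and -0.10 to 0.45 in untreated cells. Whether the step differed between the arms was not tested.

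**Figure D3:**
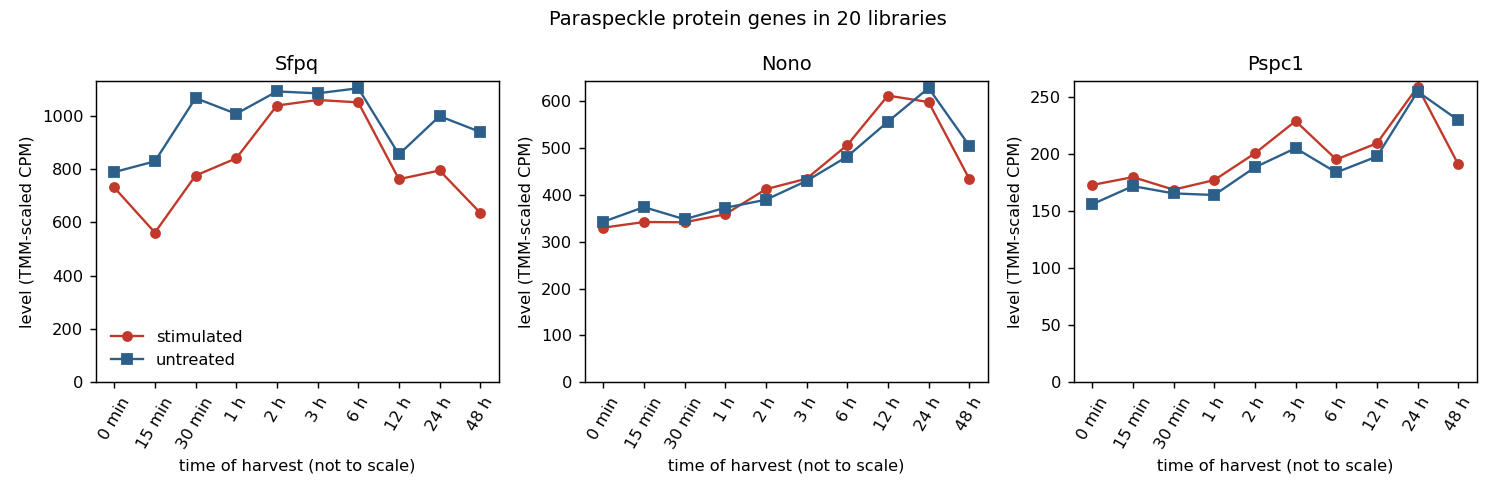
TMM-scaled CPM (linear axes from 0) of Sfpq, Nono and Pspc1 in each of the 10 stimulated (circles) and 10 untreated (squares) libraries, by time of harvest with even spacing. Stimulated Sfpq lies between 562 and 841 CPM in the early phase, against 830 to 1067 CPM in untreated cells, while the curves of Nono and Pspc1 run together in both arms.

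Nono, whose protein pairs with SFPQ, rose with time in both arms and by similar amounts. In stimulated cells it was at 330 CPM at 0 min, 342, 342 and 359 CPM early, 412.5, 435 and 507 CPM in the middle phase, and 612, 599 and 435 CPM late. In untreated cells it was at 343 CPM at 0 min, 374, 348 and 373 CPM early, 389.9, 430.2 and 482 CPM in the middle phase, and 557, 629 and 506 CPM late. The arms overlapped in each of the 3 phases, and the stimulated library was lower at 5 and higher at 4 of 9 times. The 9-time difference of -0.02 had a 95% interval of -0.10 to 0.06 (edgeR adjusted p = 0.69). Without the 12 h pair a late difference of -0.15 passed (edgeR adjusted p = 0.034), against -0.06 with it (edgeR adjusted p = 0.44). Between late and early libraries Nono rose by 0.66 ± 0.12 in stimulated cells (edgeR adjusted p = 0.00054) and by 0.63 ± 0.12 in untreated cells (edgeR adjusted p = 0.0018). Of all genes 29.2% rose in stimulated and 22.6% in untreated cells.

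Pspc1, whose protein is known to be dispensable for paraspeckles in cell lines, was at 173 CPM at 0 min in stimulated cells, 180, 169 and 177.5 CPM early, 201, 229 and 196 CPM in the middle phase, and 209.8, 259 and 191 CPM late. In untreated cells it was at 156 CPM at 0 min, 172, 166 and 164 CPM early, 189, 205.5 and 184 CPM in the middle phase, and 198, 255 and 230.1 CPM late. The stimulated library was higher at 8 and lower at 1 of 9 times, and the 9-time difference was 0.04 with an interval of -0.05 to 0.13 (edgeR adjusted p = 0.49). Between late and early libraries it rose by 0.33 ± 0.11 in stimulated cells (edgeR adjusted p = 0.021) and by 0.44 ± 0.11 in untreated cells (edgeR adjusted p = 0.0060). Of all genes 29.2% rose in stimulated and 22.6% in untreated cells. The stimulated call was lost without any 1 of 15 min, 30 min, 1 h and 24 h (0.19 to 0.32, adjusted p from 0.059 to 0.11).

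Per kilobase of annotated exons, Sfpq was the highest of these 3 genes, at a median of 189 CPM per kilobase over the 20 libraries (lowest 118.5, highest 233). Nono had a median of 96.3 (75.5 to 144) and Pspc1 a median of 33.1 (27.3 to 45.2), so the ranges of the 3 genes did not meet except for those of Sfpq and Nono.

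**Figure D4:**
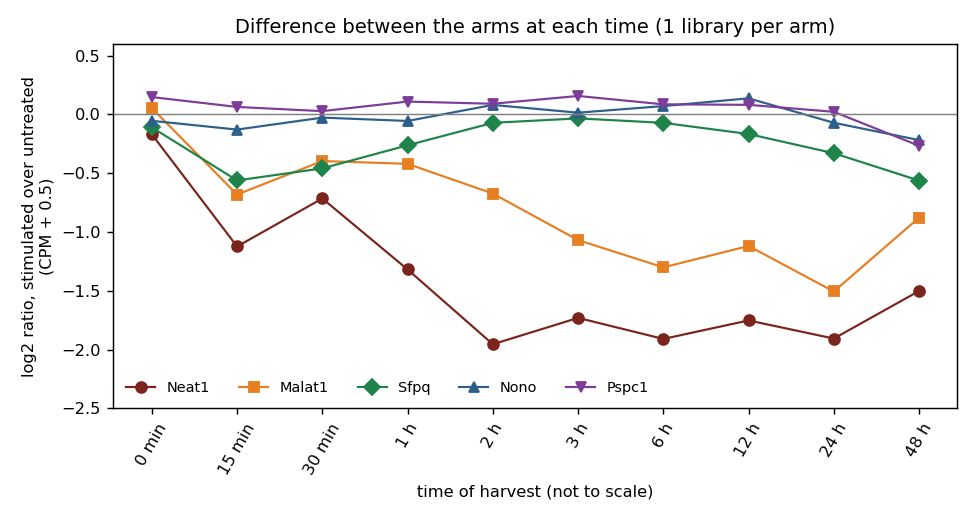
Log2 ratio of the stimulated over the untreated library (CPM plus 0.5) for each of the 5 genes at each of the 10 times, evenly spaced; each point compares 1 library with 1 library. Neat1 lies between -1.96 and -0.71 and Malat1 between -1.51 and -0.40 after 0 min, Sfpq is nearest to 0 at 3 h (-0.03), and Nono and Pspc1 stay within -0.27 and 0.16.

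Other proteins of the body were read from lists written from general knowledge, which were chosen with earlier results of these data known. Of 8 proteins needed for intact paraspeckles, among them Sfpq and Nono, 2 fell and 0 rose in stimulated relative to untreated cells over the 9 times, with a list median log2 fold change of -0.06 against 0.00 for all genes, beside 11.7% of all genes lower and 10.6% higher. Beside Sfpq this was Rbm14, a protein with prion-like domains (-0.15 ± 0.04, edgeR adjusted p = 0.015). In the late phase 4 of 8 fell and 0 rose, beside 18.3% of all genes lower, but without the 24 h pair 1 of 8 fell. Late against early, 5 of 8 rose and 0 fell in stimulated cells, and 6 of 8 rose and 0 fell in untreated cells, beside 29.2% of all genes rising in stimulated and 22.6% in untreated cells. Smarca4, the BRG1 remodelling ATPase, rose by 0.77 ± 0.12 in stimulated cells (edgeR adjusted p = 0.00017) and by 0.83 ± 0.12 in untreated cells (edgeR adjusted p = 0.00043).

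Of 27 other paraspeckle proteins, Pspc1 included, 8 fell and 3 rose in stimulated cells over the 9 times, with a median of -0.09. Of all genes 11.7% fell and 10.6% rose, so the number that rose was near the background, and without the 24 h pair 5 of 27 fell. Rbm4b, a splicing regulator, fell by 0.45 ± 0.06 (edgeR adjusted p = 0.00089), and Ewsr1, an RNA-binding protein, fell by 0.22 ± 0.05 (edgeR adjusted p = 0.011). Late, Cirbp, the cold-inducible RNA-binding protein, fell by 0.53 ± 0.07 (edgeR adjusted p = 0.00029). With library totals in place of TMM the 3 higher genes of this list were no longer called. Tardbp, which codes for TDP-43, rose late against early by 1.44 ± 0.33 in stimulated cells (edgeR adjusted p = 0.0022) and by 1.23 ± 0.33 in untreated cells (edgeR adjusted p = 0.0088).

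**Figure D5:**
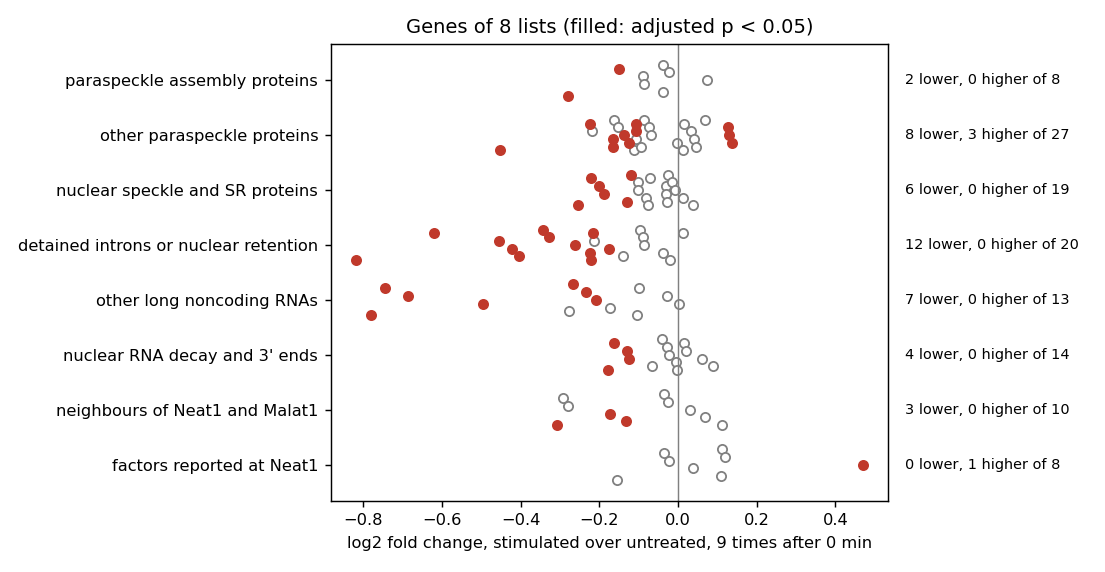
Log2 fold change of stimulated over untreated cells across the 9 times after 0 min for each tested gene of 8 lists; filled points passed an adjusted p of 0.05 and open points did not, and the counts stand at the right. In the list on detained introns or nuclear retention 12 of 20 genes are filled and lie below 0, and in the other long noncoding RNA list 7 of 13.

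Among genes whose own transcripts are known for detained introns or nuclear retention, those that passed between the arms had fallen. Over the 9 times 12 of 20 fell and 0 rose in stimulated cells, with a median of -0.22, beside 11.7% and 10.6% of all genes. In the early phase 8 of 20 fell, in the middle phase 9 and in the late phase 16, and 0 rose in any of them. The shares of all genes that fell were 1.64% early, 10.3% in the middle phase and 18.3% late. Leng8 fell most, with -0.82 ± 0.05 (edgeR adjusted p = 7.1e-05), followed by Rsrp1 at -0.62 ± 0.06 (edgeR adjusted p = 0.00041) and Pnisr at -0.46 ± 0.04 (edgeR adjusted p = 0.00016). Early, Ogt, the O-GlcNAc transferase, fell by 0.64 ± 0.05 (edgeR adjusted p = 0.00036). Late, Ccnl1, the splicing-linked cyclin L1, fell by 0.51 ± 0.09 (edgeR adjusted p = 0.00090). Counts per gene do not tell a retained intron from a spliced transcript. Leaving out single pairs gave 10 to 13 of 20 over the 9 times and 9 to 18 of 20 late, with 9 without 24 h and 10 without 48 h. The early count was 3 without 15 min, 1 without 30 min and 6 without 1 h.

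Of 19 nuclear speckle and SR proteins, the splicing factors of the body that Malat1 marks, 6 fell and 0 rose over the 9 times (median -0.08), beside 11.7% of all genes lower. Late the count was also 6 of 19, beside 18.3%. Srsf11 fell by 0.25 ± 0.06 (edgeR adjusted p = 0.013) and Pnn, pinin, fell by 0.22 ± 0.05 (edgeR adjusted p = 0.0079). With single pairs left out the count was 3 to 5 of 19 over the 9 times, 3 of them without 24 h, and 2 to 11 late, 2 without 48 h. With library totals it was 11.

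Of 13 other long noncoding RNAs tested, 7 fell, 0 rose and 6 did not pass in stimulated cells over the 9 times (median -0.23), beside 11.7% of all genes lower, and with single pairs left out 6 or 7 did. Mir17hg, the host of the miR-17 cluster, fell by 0.78 ± 0.13 (edgeR adjusted p = 0.0032), Firre fell by 0.75 ± 0.09 (edgeR adjusted p = 0.0011) and Kcnq1ot1, an imprinted antisense RNA, fell by 0.69 ± 0.11 (edgeR adjusted p = 0.0027). Late, the log2 changes of these 3 genes were -1.10, -1.05 and -0.96, with SEs of 0.19, 0.11 and 0.15. Late against early, 1 of 13 rose and 5 fell in stimulated cells, beside 29.2% of all genes rising and 25.7% falling. In untreated cells 2 of 13 rose and 1 fell, beside 22.6% and 20% of all genes. Firre changed by -0.93 ± 0.23 in stimulated cells (edgeR adjusted p = 0.0037) and by -0.34 ± 0.23 in untreated cells (edgeR adjusted p = 0.23). Kcnq1ot1 changed by 0.47 ± 0.25 in stimulated cells (edgeR adjusted p = 0.12) and by 1.02 ± 0.25 in untreated cells (edgeR adjusted p = 0.0055).

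Of 10 neighbours of the locus tested, 3 fell and 0 rose in stimulated cells over the 9 times (median -0.08), beside 11.7% of all genes lower, and without the 24 h pair 0 did. Late, Ehbp1l1 fell by 0.61 ± 0.11 (edgeR adjusted p = 0.0018) and Sipa1, a Rap GTPase activator, fell by 0.58 ± 0.09 (edgeR adjusted p = 0.00039). Late against early, 3 of 10 neighbours rose and 4 fell in stimulated cells, beside 29.2% of all genes rising and 25.7% falling. In untreated cells 3 of 10 rose and 1 fell, beside 22.6% and 20% of all genes. Frmd8, which binds iRhom, rose in this comparison by 0.42 ± 0.12 in stimulated cells (edgeR adjusted p = 0.0090). In untreated cells it rose by 0.33 ± 0.12 (edgeR adjusted p = 0.042). Ehbp1l1 had a late against early log2 change of -1.08 ± 0.25 in stimulated cells (edgeR adjusted p = 0.0024). The changes of Neat1 were 1.37 in stimulated and 1.99 in untreated cells.

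The levels most like those of Neat1 over the 20 libraries, among 9060 genes with a mean of at least 5 CPM, were those of Eps15l1 (Pearson r = 0.94), Slx4 (0.93), Kcnq1ot1 (0.92), Fam160b2 (0.92) and Stat2 (0.92). Malat1 came at place 149 with r = 0.77. For Malat1 the nearest were Leng8 (0.92), Mamdc4 (0.86) and Rhbdl1 (0.86), with Neat1 at place 20. Sfpq was most like Ttll4 (0.91), Azi2 (0.85) and Preb (0.84). Nono was most like Gart, Cstf2 and Eif3l (0.99 each), and Pspc1 most like Got1 (0.94), Denr (0.92) and Metap2 (0.92). Nono and Pspc1 correlated with each other at 0.82, against 0.20 and 0.18 with Sfpq. Among the 9060 genes Pspc1 came only at place 1509 for Nono, and Nono at place 372 for Pspc1. By the log2 ratio between the arms over the 10 times, Neat1 was most like Irf2bp1 (0.93), Fam98c (0.92), Prx (0.90), Ankle1 (0.90) and Snn (0.89), with Malat1 at place 22 (0.86). These are correlations over libraries that share mice, lanes and times, and they carry no test.

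Some markers of other cell types differed between the arms, and so did the lanes. Summed B cell markers were 1436 CPM in stimulated cells at 24 h, against 1854 CPM in untreated cells, and 1799 CPM at 2 h against 1882 CPM in untreated cells. Of the 7 macrophage and monocyte markers, 6 were found in the tables. Their sum was 39.5 to 97.98 CPM in stimulated libraries and 25.8 to 62.3 CPM in untreated libraries. Csf1r was at 20.1 to 42.6 CPM in stimulated and 13.8 to 30.8 CPM in untreated libraries. Cd68 was at 8.93 to 21.7 CPM in stimulated and 10.8 to 22.5 CPM in untreated libraries. Emr1 was at 2.48 to 36 CPM in stimulated and 0.716 to 8.79 CPM in untreated libraries. Itgam reached 1.94 CPM in stimulated and 1.85 CPM in untreated libraries, and Lyz2 and Cd14 stayed under 0.1 CPM in all. The 4 dendritic cell markers summed to 26.8 to 65.2 CPM in stimulated libraries and 17.3 to 27.1 CPM in untreated libraries. Zbtb46 was at 18.7 to 36.3 CPM in stimulated and 6.39 to 18.9 CPM in untreated libraries. Flt3 reached 32.7 CPM in stimulated and 12 CPM in untreated libraries. Itgax stayed at or below 0.592 CPM in stimulated and 0.384 CPM in untreated libraries, and Siglech reached 0.59 and 1.18 CPM. The part of other cell types in the differences of Neat1, Malat1 and Sfpq was not tested. Fewer cells of a type and less RNA per cell cannot be told apart in such bulk libraries. Stimulated and untreated libraries of 1 time were never in the same lane, so with time in the fit lane and arm cannot be told apart. Among the times in lanes 4 and 3 the difference was -1.47 for Neat1, -0.91 for Malat1 (edgeR adjusted p = 0.090) and -0.28 for Sfpq (edgeR adjusted p = 0.20). Among those in lanes 2 and 1 it was -1.68 for Neat1, -1.03 for Malat1 (edgeR adjusted p = 0.31) and -0.27 for Sfpq (edgeR adjusted p = 0.31), so the sizes were close in both while the calls were lost in the smaller fits, which called 5 genes and 0 genes. Relative to the 0 min pair the late change of Malat1 was -1.22 (edgeR adjusted p = 0.015), while its 9-time change of -0.95 and that of Sfpq (-0.17) did not pass (edgeR adjusted p = 0.21 and 0.71).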

How the data were processed

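Poly-A libraries of 10 stimulated and 10 untreated mouse samples were measured. The deposited values are raw counts per gene, made by the authors; STAR, HTSeq and the build GRCm38.p3 (mm10) are named per the submitters' processing notes, without versions or strand setting. A deposited sample sheet was not used.

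Genes reaching 1 CPM in 3 or more fitted libraries were tested by the quasi-likelihood F-test of edgeR 4.0.16 (R 4.3.3) after TMM scaling, with Benjamini-Hochberg adjustment over all of them and a threshold of 0.05. Treatment was fitted with time as a factor, so that libraries of 1 time form a pair, over 18 libraries after 0 min and by phase. Change over time within an arm used all 20 libraries in 8 groups of arm and phase. The SE is the log2 fold change divided by the square root of F, and 95% intervals use the t distribution of the fit. The main models were tested on simulated data that held 200 altered genes and no other effect of time, mouse or lane. Of the altered genes 80.5% to 100% were recovered, by comparison. The early and middle treatment differences and the alternative models were not simulated. Levels are TMM-scaled CPM; a floor of 3 counts covers counting error only.

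The members and lists were chosen with earlier results of these data known. Lists cover assembly and other paraspeckle proteins, nuclear speckle proteins, detained introns, other long noncoding RNAs, nuclear RNA decay, neighbouring genes, and factors reported at Neat1. From each list and comparison, up to 3 called genes per direction could be named, by size of change, given a mean of at least 5 CPM; likeness used 5 genes for Neat1 and 3 for the others. Sequences and positions are from GENCODE vM21 and its GRCm38 genome. Alternatives were RLE size factors, library totals, DESeq2 1.42.0, other filters, lane, no pairing by time, and single times left out. Some named list genes are not reported here.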

Additional observations from a re-analysis of the deposited data

Results flagged for a closer look

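The difference of Malat1 between stimulated and untreated cells itself differed between phases, by -0.68 ± 0.18 on the log2 scale late minus early (edgeR adjusted p = 0.021), with fitted differences of -1.18 late and -0.50 early. The test of that difference is what set it apart. With lane as a term it was -0.61 (edgeR adjusted p = 0.040), and DESeq2 gave -0.67 (adjusted p = 0.00052). The call was lost with lane and a spline of time (-0.52, edgeR adjusted p = 0.50) and without pairing by time (-0.68, edgeR adjusted p = 0.41). It was also lost without 3 of the 6 times left out in turn (30 min, 1 h and 24 h), with adjusted p up to 0.087. Which of the mouse, the lane or the treatment goes with it cannot be told apart.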

How the results depend on the processing

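No result of the 5 genes changed sign past its threshold under any alternative run. With single times left out, the 9-time change was -1.66 to -1.51 for Neat1, -0.96 to -0.82 for Malat1 and -0.31 to -0.25 for Sfpq. Late minus early, Malat1 was at -0.83 to -0.50. In untreated cells Malat1 was at 0.56 to 0.79 late against early and 0.61 to 0.84 middle against early. In stimulated cells Pspc1 was at 0.19 to 0.42 late against early and Nono at 0.29 to 0.44 middle against early. Early Sfpq was at -0.51 to -0.35 and late Nono at -0.15 to 0.015. Counts of called genes were 1571 to 2767 over the 9 times, 9 to 76 early, 899 to 1699 in the middle phase and 1372 to 2622 late minus early. They were 2944 to 6014 late against early in untreated cells. Middle against early they were 3164 to 5378 in stimulated and 698 to 3445 in untreated cells.

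DESeq2 called 426 genes early and the early Malat1 change of -0.50; without a filter on low counts these were 747 genes and -0.49, and Pspc1 late against early in stimulated cells was at 0.30 (adjusted p = 0.071). Library totals in place of TMM moved the median of all genes by -0.14 late against early in stimulated and -0.11 in untreated cells. They lost Pspc1 (0.17) and Nono middle against early (0.24) in stimulated cells, and Malat1 in untreated cells late (0.60) and middle (0.68) against early.

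Without the replicate block (phase in place of time), the calls were 1128 over the 9 times, 5 early, 247 in the middle phase, 1447 late and 414 late minus early. Malat1 late minus early was then -0.68 (adjusted p = 0.41), and Sfpq was -0.41 early and -0.36 late, none called. Libraries were paired by their time label, since the labels carry no replicate numbers. Relative to the 0 min pair, 7, 0, 43 and 847 genes were called over the 9 times, early, middle and late, with 1224 and 267 at an unadjusted p under 0.05 over the 9 times and early. Malat1 was at -0.95 over the 9 times and -1.07 in the middle phase, and Sfpq at -0.17, -0.32 early and -0.24 late, none called, while Neat1 was at -1.70 in the middle phase. This setting rests on 1 library per arm at 0 min.

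With lane as a term, 1526 genes were called late minus early. Middle against early, Pspc1 was then called in stimulated cells (0.37) and Malat1 lost in untreated cells (0.58). Lane with the time factor could not be fitted for the treatment changes themselves. The following were chosen after seeing the data. With lane and a spline of time, 0 genes were called over the 9 times (753 at an unadjusted p under 0.05), 0 early (815), 21 in the middle phase, 185 late and 442 late minus early. Neat1 was then at -2.33 over the 9 times, -2.31 early, -2.13 in the middle phase and -2.61 late. Malat1 was at -1.04, -1.38 in the middle phase, -1.35 late and -0.52 late minus early, and Sfpq at -0.45, -0.52 early and -0.55 late, none called. Lanes 4 and 3 gave 5 calls, with Malat1 at -0.91 and Sfpq at -0.28. Lanes 2 and 1 gave 0 calls (1731 at an unadjusted p under 0.05), with Malat1 at -1.03 and Sfpq at -0.27. Each of the 5 genes had at least 2128 counts in every library. The cause of the lost calls was not tested.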

Other observations

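Of 8 tested factors reported to bind or drive Neat1, 1 rose, 0 fell and 7 did not pass in stimulated relative to untreated cells over the 9 times, which is near the 10.6% of all genes that rose. Stat3, the signal transducer of interleukin 6 and interleukin 10, was the one that rose, by 0.47 ± 0.13 on the log2 scale (edgeR adjusted p = 0.029), a call lost without the 24 h pair. Late it rose by 0.96 ± 0.07 (edgeR adjusted p = 7.6e-06). Late, Runx1, a transcription factor of blood development, fell by 0.46 ± 0.09 (edgeR adjusted p = 0.0024). Late against early, 3 of 8 factors rose and 3 fell in stimulated cells, beside 29.2% of all genes rising and 25.7% falling. In untreated cells 1 of 8 rose and 3 fell, beside 22.6% and 20% of all genes. Trp53, which codes for p53, rose by 0.76 ± 0.13 in stimulated cells (edgeR adjusted p = 0.00026) and by 0.61 ± 0.13 in untreated cells (edgeR adjusted p = 0.0025). Runx1 changed by -1.60 ± 0.24 in stimulated cells (edgeR adjusted p = 0.00011) and by -0.93 ± 0.24 in untreated cells (edgeR adjusted p = 0.0066).

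Of 14 genes of nuclear RNA decay and 3' end processing, 4 fell and 0 rose in stimulated cells over the 9 times, beside 11.7% of all genes lower, and without the 24 h pair 1 fell. Late, 2 fell and 1 rose, shares under the 18.3% of all genes lower and 17.8% higher, and without the 24 h pair 0 fell and without the 48 h pair 0 rose. Zfc3h1, the scaffold of a complex that delivers polyadenylated nuclear RNA to the exosome, fell early by -0.54 ± 0.07 (edgeR adjusted p = 0.0046) and rose late by 0.27 ± 0.07 (edgeR adjusted p = 0.011). Its late minus early difference was 0.81 ± 0.10 (edgeR adjusted p = 0.00039). Skiv2l2, the RNA helicase MTR4, rose late against early by 0.73 ± 0.12 in stimulated cells (edgeR adjusted p = 0.00024) and by 0.58 ± 0.12 in untreated cells (edgeR adjusted p = 0.0025).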
